A study of Mus musculus with 14 samples.

Results

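The genes Trac, Trbc2, Cd3d, Cd3e, Cd3g, Lck, Cd4, Cd8a, Nkg7 and Gzma, which are used as markers of T cells and natural killer (NK) cells, were followed in heart RNA of older and younger mice. The 10 genes were taken by symbol from the 49315 genes of the count table. The 68-week group held 4 RNA-seq libraries and the 12-week group held 4, each from heart tissue of male wild-type (WT) C57BL/6 mice kept on standard chow. Total RNA came from pulverised whole tissue, so every value is a sum over all cells of the sample. In such bulk samples, fewer T or NK cells and less RNA per cell cannot be told apart. Nothing in the labels ties the libraries to separate animals, so each p-value is about the spread among these 8 libraries, which may be technical. Cardiomyocyte markers were abundant in every library, with 5 genes (such as Myh6) summing to between 52190 and 57630 counts per 1000000 counts of the scaled library size (CPM) at 68 weeks, against 46260 to 55000 CPM at 12 weeks.

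A T cell recognises antigen through a receptor made of an alpha and a beta chain, or of a gamma and a delta chain, which is carried to the surface and coupled to signalling by the CD3 proteins. The kinase LCK, held near the receptor by the coreceptor CD4 or CD8, phosphorylates CD3 when the receptor is engaged. NK cells lack this receptor and share with cytotoxic T cells the granule proteins that kill target cells. In the heart, T and NK cells are scarce beside cardiomyocytes, fibroblasts, endothelial cells and macrophages.

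All 10 genes were detected, and all were rare. The libraries held 28842059 to 34599121 counts at 68 weeks, against 23599296 to 31662601 counts at 12 weeks, and a single count was worth 0.0295 to 0.043 CPM. Across the 10 genes and 8 libraries, single values lay between 1 and 44 counts. The summed level of the 10 genes was 3.87, 3.35, 2.93 and 2.68 CPM in 68-week replicates 1 to 4, against 4.18, 4.88, 6.37 and 3.36 CPM in 12-week replicates 1 to 4. The 68-week replicate 1 lay above the 12-week replicate 4, so the summed levels overlapped. Of the 10 genes, 5 had enough counts to be tested (at least 0.337 CPM, about 10 counts, in any 4 of the 8 libraries), namely Trac, Cd3e, Lck, Cd4 and Gzma. In edgeR's quasi-likelihood test with Benjamini-Hochberg adjustment over 15947 genes, 1 of these 5 was lower at 68 weeks at an adjusted p of at most 0.05 and 0 were higher. Across all tested genes, 2.83% were called, 1.22% lower and 1.61% higher. At an unadjusted p under 0.05, 2 of the 5 were lower and 0 were higher, against 9.77% lower and 9.26% higher over all tested genes. These 2 were Trac and Gzma. Because Gzma passed the filter only through the 12-week libraries, where it was high, this count is a description.

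**Figure D1:**
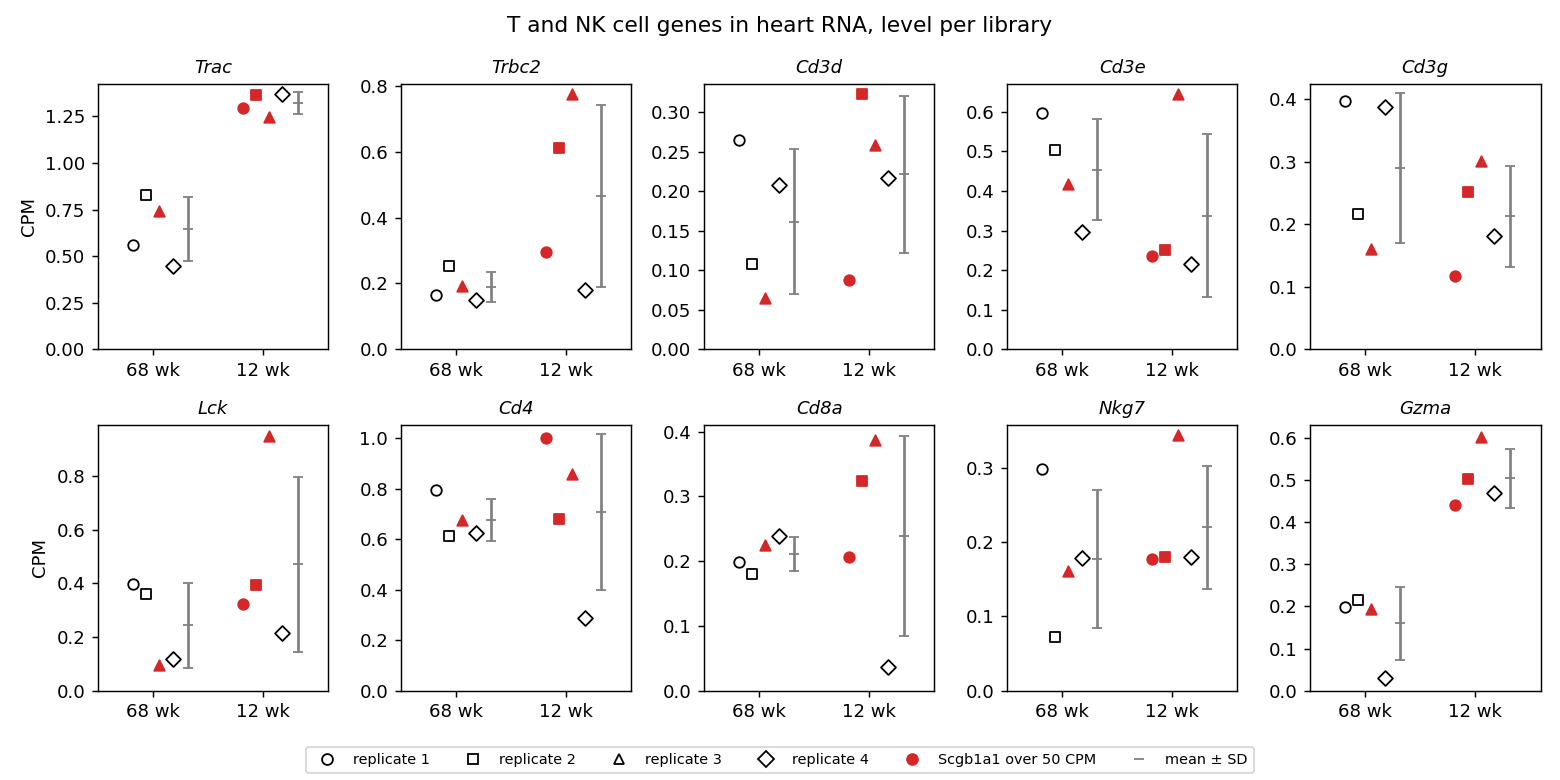
Level of each of the 10 genes in CPM (vertical axes, linear, each from 0) in the 4 libraries of 68-week hearts (left of each panel) and the 4 libraries of 12-week hearts (right), with the mean and SD in grey. Red symbols mark the 4 libraries with over 50 CPM of Scgb1a1; Trac and Gzma are the genes whose ages do not overlap.

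The alpha chain of the T cell receptor was the clearest difference. Trac, which encodes its constant region (mm10 chr14:54220521-54224206, plus strand), had 0.563, 0.829, 0.741 and 0.446 CPM in 68-week replicates 1 to 4, against 1.30, 1.365, 1.25 and 1.37 CPM in 12-week replicates 1 to 4. Every 68-week library lay below every 12-week library, an order seen in 5.86% of all tested genes, and the 12-week values lay close together. Trac averaged 0.645 ± 0.173 CPM at 68 weeks and 1.32 ± 0.0588 CPM at 12 weeks (SD, n = 4 each). Its log2 fold change was -1.04 ± 0.22 (SE; 95% interval -1.53 to -0.55), with an edgeR adjusted p of 0.0424. The counts behind it summed to 78 at 68 weeks (exact Poisson 95% interval 61.7 to 97.3) and 149 at 12 weeks (126.0 to 174.9), and these intervals cover counting error only. The call was close to the threshold: leaving out any 1 of the 8 libraries gave log2 fold changes of -1.17 to -0.89 and edgeR adjusted p of 0.0562 to 0.0999, so the direction held in all 8 of these fits and the call in none.

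Trbc2, which encodes a constant region of the beta chain (chr6:41546730-41548352, plus strand), had 0.166, 0.252, 0.193 and 0.149 CPM in 68-week replicates 1 to 4, against 0.295, 0.610, 0.775 and 0.181 CPM in 12-week replicates 1 to 4. The low value of 12-week replicate 4 lay inside the 68-week range, and the other 12-week libraries were above it. Trbc2 did not pass the filter on low counts. In a fit of all genes without that filter its log2 fold change was -1.25 ± 0.47 (SE; 95% interval -2.25 to -0.25), with an edgeR adjusted p of 0.255. The neighbouring gene Trbc1 encodes a nearly identical constant region, so reads may have been split between them, and the value of either gene alone is uncertain. Trbc1 had 8, 4, 2 and 1 counts in the 68-week libraries, against 3, 6, 10 and 9 counts in the 12-week libraries, and these overlapped too.

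The delta chain went the other way. Trdc, the constant region of the delta chain and one of a wider list of T and NK genes described further on, lies at chr14:54142851-54148868 (plus strand), on the same chromosome as Trac. It had 0.530, 0.577, 0.612 and 0.655 CPM in 68-week replicates 1 to 4, against 0, 0.108, 0.0861 and 0.108 CPM in 12-week replicates 1 to 4. Every 68-week library lay above every 12-week library, an order seen in 6.26% of all tested genes, and each 12-week value rested on 0 to 3 counts. Summed counts were 73 at 68 weeks (exact Poisson 95% interval 57.2 to 91.8) and 8 at 12 weeks (3.5 to 15.8). The log2 fold change was 2.98 ± 0.48 (SE; 95% interval 1.91 to 4.04), with an edgeR adjusted p of 0.0147. Trdc passed the filter only through the 68-week libraries, where it was high. Among the fits that leave out 1 library, its call was lost without 68-week replicate 4, at an edgeR adjusted p of 0.05003 just above the threshold and a log2 fold change of 2.92. Other models in which the call was lost are given further on. Trdc overlaps Gm43434 and Trdv5 on the opposite strand, which held 1 and 0 counts over all 8 libraries.

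The gamma chain constant regions were near the limit of detection. Tcrg-C1 had 4, 8, 8 and 7 counts in the 68-week libraries, against 2, 1, 2 and 1 counts in the 12-week libraries. Tcrg-C2 had 5, 5, 4 and 5 counts at 68 weeks, against 1, 1, 0 and 3 counts at 12 weeks. For both genes every 68-week library was above every 12-week library. Tcrg-C4 had 3, 1, 1 and 2 counts at 68 weeks, against 1 in each 12-week library. None of the 3 passed the filter. In the unfiltered fit they had log2 fold changes of 1.97 ± 0.53, 1.72 ± 0.65 and 0.63 ± 0.74 (SE), with edgeR adjusted p of 0.0821, 0.257 and 0.737. Tcrg-C1 and Tcrg-C2 are close copies of each other, so their separate counts are uncertain.

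**Figure D2:**
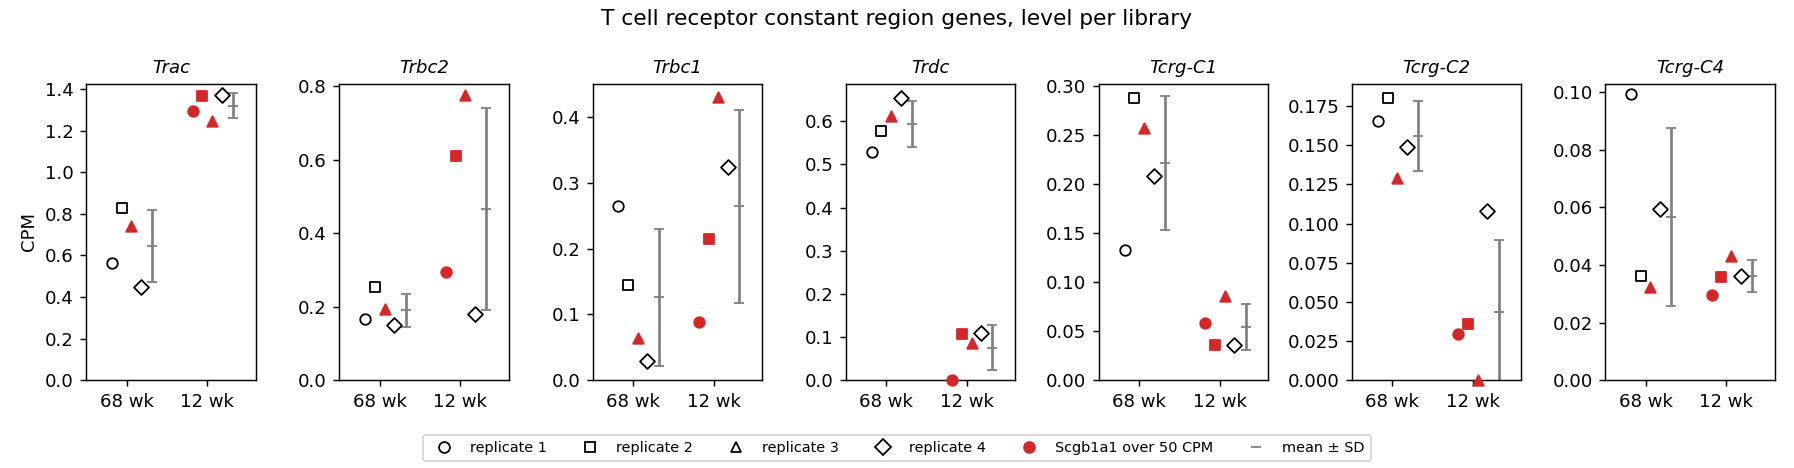
Level in CPM (vertical axes, linear, each from 0) of the constant region genes of the alpha chain (Trac), beta chain (Trbc2, Trbc1), delta chain (Trdc) and gamma chains (Tcrg-C1, Tcrg-C2, Tcrg-C4) in the 4 libraries of 68-week hearts (left of each panel) and the 4 of 12-week hearts (right), with mean and SD in grey and red for libraries with over 50 CPM of Scgb1a1. Trac lies lower at 68 weeks in every library, whereas Trdc lies higher there in every library.

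The CD3 genes showed no age difference that passed the test, and they did not share a direction. Cd3d, Cd3e and Cd3g encode the CD3 delta, epsilon and gamma proteins, which accompany both kinds of receptor, and they lie together within 40.1 kb of chromosome 9. Cd3g (chr9:44969572-44980431, minus strand) and Cd3d (chr9:44981786-44987339, plus strand) start 1355 bases apart and point away from each other, and Cd3e follows (chr9:44998740-45009627, minus strand). The promoters of these neighbours are shown because each gene was linked to a deposited H3K27me3 region, described further on. The 300 bases run from 250 before to 50 after each start, 5′ to 3′ on the gene's own strand, from RefSeq on GRCm38.p6. They are chr9:44981536-44981835 (plus) for Cd3d, chr9:45009562-45009861 (minus) for Cd3e and chr9:44980382-44980681 (minus) for Cd3g. Capitals mark matches, on either strand, to 3 motifs of transcription factor families active in lymphocytes, ETS (AGGAAG), RUNX (TGNGGT) and TCF/LEF (CTTTGA).
Cd3d: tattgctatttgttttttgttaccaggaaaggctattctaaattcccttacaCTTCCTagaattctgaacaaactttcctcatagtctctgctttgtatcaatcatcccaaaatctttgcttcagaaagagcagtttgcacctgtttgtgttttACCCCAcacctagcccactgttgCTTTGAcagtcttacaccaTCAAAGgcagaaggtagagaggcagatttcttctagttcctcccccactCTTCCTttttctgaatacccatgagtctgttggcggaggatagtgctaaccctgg
Cd3e: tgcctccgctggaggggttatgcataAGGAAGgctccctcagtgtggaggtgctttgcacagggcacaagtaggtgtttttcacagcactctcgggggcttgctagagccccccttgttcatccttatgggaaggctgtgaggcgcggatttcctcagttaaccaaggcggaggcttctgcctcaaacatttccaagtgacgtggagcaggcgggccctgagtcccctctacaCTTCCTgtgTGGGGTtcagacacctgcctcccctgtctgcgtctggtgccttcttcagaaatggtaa
Cd3g: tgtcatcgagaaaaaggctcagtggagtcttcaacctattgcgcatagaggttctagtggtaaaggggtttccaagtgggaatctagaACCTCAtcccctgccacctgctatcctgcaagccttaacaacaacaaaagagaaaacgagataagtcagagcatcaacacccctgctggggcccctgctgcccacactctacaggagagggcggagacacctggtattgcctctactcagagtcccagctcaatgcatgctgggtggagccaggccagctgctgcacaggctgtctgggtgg
The Cd3d window held 2 ETS, 1 RUNX and 2 TCF/LEF matches. The Cd3e window held 2 ETS, 1 RUNX and 0 TCF/LEF matches, and the Cd3g window held 1 RUNX match alone. Among 32851 promoter windows of the same length, 35.4% held the ETS letters, 45.8% the RUNX letters and 16.0% the TCF/LEF letters, so such matches are common and are given as a description.

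Cd3e had 0.596, 0.505, 0.419 and 0.298 CPM in 68-week replicates 1 to 4, against 0.236, 0.251, 0.646 and 0.217 CPM in 12-week replicates 1 to 4. The 12-week replicate 3 was above all 68-week libraries, and the other 12-week libraries were below all of them. The log2 fold change was 0.46 ± 0.40 (SE; 95% interval -0.43 to 1.35; edgeR adjusted p 0.570). Leaving out 1 library at a time gave values from 0.30 to 0.94, the highest of them without 12-week replicate 3, and none passed the test.

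Cd3d had 0.265, 0.108, 0.0645 and 0.208 CPM at 68 weeks, against 0.0884, 0.323, 0.258 and 0.217 CPM at 12 weeks. Cd3g had 0.397, 0.216, 0.161 and 0.387 CPM at 68 weeks, against 0.118, 0.251, 0.301 and 0.181 CPM at 12 weeks. The ages overlapped for both genes, which rested on 2 to 13 counts per library and did not pass the filter. In the fit without it, the log2 fold change was -0.40 ± 0.53 for Cd3d (SE; 95% interval -1.53 to 0.73; edgeR adjusted p 0.758). That of Cd3g was 0.49 ± 0.45 (SE; 95% interval -0.46 to 1.45; edgeR adjusted p 0.622). The interval of Cd3d holds the fitted value of Trac, so a difference of that size is not excluded for Cd3d.

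The receptor chains and the CD3 genes were also set against each other within each library, as a description chosen after their values had been seen and with no test. Trac and Trbc2 together had 57.9, 130.4, 145 and 66.7 counts for every 100 counts of the 3 CD3 genes in 68-week replicates 1 to 4. In 12-week replicates 1 to 4 they had 360, 239.1, 167.9 and 252.9. Every 68-week library was below every 12-week library in this ratio, which does not depend on how the libraries were scaled.

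Lck, the kinase that starts signalling from the receptor (chr4:129548344-129573641, minus strand), had 0.397, 0.3605, 0.0967 and 0.119 CPM in 68-week replicates 1 to 4, against 0.324, 0.395, 0.947 and 0.217 CPM in 12-week replicates 1 to 4. Both ages were scattered and overlapped. The log2 fold change was -0.92 ± 0.57 (SE; 95% interval -2.20 to 0.35; edgeR adjusted p 0.418), and 12-week replicate 3 alone held 22 of the 50 counts of its age. Without that library the value was -0.37 (edgeR adjusted p 0.751).

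For each coreceptor gene, the average at 68 weeks lay close to its own average at 12 weeks. Cd4, the coreceptor of helper and regulatory T cells (chr6:124864692-124888221, minus strand), had 0.795, 0.613, 0.677 and 0.625 CPM in 68-week replicates 1 to 4, against 1.00, 0.682, 0.861 and 0.289 CPM in 12-week replicates 1 to 4. The 12-week values enclosed all 68-week values. Cd4 averaged 0.677 ± 0.0831 CPM at 68 weeks and 0.708 ± 0.309 CPM at 12 weeks (SD, n = 4 each). Its log2 fold change was -0.07 ± 0.33 (SE; 95% interval -0.82 to 0.68; edgeR adjusted p 0.933), an interval that does not reach the fitted value of Trac. Macrophages and dendritic cells can also carry Cd4 RNA, which bulk libraries do not separate.

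Cd8a, a chain of the coreceptor of cytotoxic T cells (chr6:71373427-71379173, plus strand), had 0.199, 0.180, 0.226 and 0.238 CPM at 68 weeks, against 0.206, 0.323, 0.387 and 0.0361 CPM at 12 weeks. The 12-week range again enclosed the 68-week range. Cd8a did not pass the filter, with 26 counts over the 4 libraries of each age. Without the filter its log2 fold change was -0.13 ± 0.51 (SE; 95% interval -1.23 to 0.96; edgeR adjusted p 0.941).

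Of the granule genes, Gzma separated the ages and Nkg7 did not. Gzma, which encodes the protease granzyme A of NK cells and cytotoxic T cells (chr13:113093825-113100979, minus strand), had 0.199, 0.216, 0.193 and 0.0298 CPM in 68-week replicates 1 to 4, against 0.442, 0.503, 0.603 and 0.469 CPM in 12-week replicates 1 to 4. Every 68-week library lay below every 12-week library, and 68-week replicate 4 held a single count. Summed counts were 19 at 68 weeks (exact Poisson 95% interval 11.4 to 29.7) and 56 at 12 weeks (42.3 to 72.7). The log2 fold change was -1.65 ± 0.41 (SE; 95% interval -2.58 to -0.73), with an unadjusted p of 0.00273 and an edgeR adjusted p of 0.0683, so it missed the threshold. DESeq2 gave -1.67 with an adjusted p of 0.0475, which passed it. Gzma passed the filter only through the 12-week libraries, where it was high. Leaving out 1 library at a time gave log2 fold changes of -1.83 to -1.29 and edgeR adjusted p of 0.0832 to 0.145.

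Nkg7, which encodes a membrane protein of cytotoxic granules (chr7:43437073-43438249, plus strand), had 0.298, 0.0721, 0.161 and 0.179 CPM at 68 weeks, against 0.177, 0.1795, 0.344 and 0.181 CPM at 12 weeks. The ages overlapped, and 3 of the 4 12-week libraries were nearly equal. Nkg7 did not pass the filter, and without it the log2 fold change was -0.26 ± 0.48 (SE; 95% interval -1.28 to 0.77; edgeR adjusted p 0.845).

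**Figure D3:**
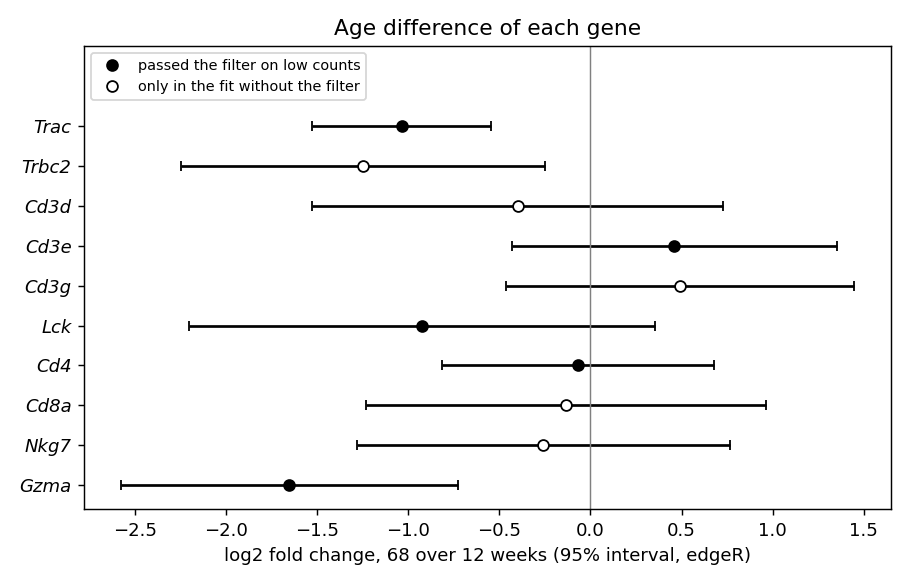
Log2 fold change of 68 over 12 weeks with its 95% interval from edgeR (horizontal axis) for each of the 10 genes (rows). Filled points passed the filter on low counts and open points come from the fit without it; the intervals of Trac, Trbc2 and Gzma lie below 0, and among these Trac alone reached an adjusted p of at most 0.05 in its fit.

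Levels of different genes were compared per kb of exon, on a scale of CPM per kb. At 68 weeks Trac stood at 0.690 ± 0.185 CPM per kb, followed by Trbc2 at 0.275 ± 0.0657, Nkg7 at 0.194 ± 0.102, Gzma at 0.182 ± 0.0992 and Cd4 at 0.168 ± 0.0206 (SD, n = 4 each). Cd3e, Cd3d, Cd3g, Lck and Cd8a followed at means of 0.0579 to 0.111 CPM per kb. At 12 weeks Trac stood at 1.41 ± 0.0629 CPM per kb, followed by Trbc2 at 0.672 ± 0.398, Gzma at 0.574 ± 0.0800, Nkg7 at 0.241 ± 0.0905 and Cd4 at 0.176 ± 0.0766 (SD, n = 4 each). Lck, Cd3d, Cd3e, Cd8a and Cd3g followed at 0.0651 to 0.161 CPM per kb. Trac was the highest per length at both ages, by more than the sum of the SDs. In the 68-week order, Trbc2 and Nkg7, Nkg7 and Gzma, and Gzma and Cd4 differed by less than the sum of their SDs. In the 12-week order, Trbc2 and Gzma as well as Nkg7 and Cd4 differed by less than that, whereas Gzma stood above Nkg7 by more. Neighbours among the 5 lowest genes were not separated beyond their spread at either age.

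Transcripts of other cells differed between the libraries as well. Scgb1a1, a secretory protein of airway club cells, had 0.199, 0, 102.1 and 0.0595 CPM in 68-week replicates 1 to 4, against 327.5, 171.4, 137.1 and 5.99 CPM in 12-week replicates 1 to 4. The 0 of 68-week replicate 2 allows up to 3 counts, or 0.108 CPM. Replicate 3 of 68 weeks thus stood with the high libraries, and replicate 4 of 12 weeks had far less than the other 12-week libraries. A list of 8 airway secretory markers summed to 1.31 to 1039 CPM at 68 weeks, against 26.5 to 1627 CPM at 12 weeks, with 0 of the 8 passing the edgeR test. The lists of ciliated cells (7 markers) and alveolar cells (7 markers) summed to 17.9 to 43.7 and 0.649 to 5.29 CPM at 68 weeks, against 36.0 to 51.8 and 4.61 to 13.6 CPM at 12 weeks, with none passing. The ciliated sum was mostly Tppp3, at 27.7, 16.55, 33.0 and 25.3 CPM in 68-week replicates 1 to 4, against 33.35, 27.5, 31.55 and 34.6 CPM at 12 weeks. The ciliated marker Foxj1 had 0, 0.216, 5.25 and 0 CPM at 68 weeks, against 8.955, 4.85, 3.745 and 0.217 CPM at 12 weeks. The alveolar marker Lamp3 had 0 counts in every 68-week library, against 1, 0, 0 and 4 counts in 12-week replicates 1 to 4.

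Trac and Gzma are given here for the 12-week library with the least Scgb1a1 and the 68-week library with the most, 1 library of each age. The part of airway material in these values was not tested. The 12-week replicate 4, with 5.99 CPM of Scgb1a1, had 1.37 CPM of Trac, close to the 1.365 CPM of 12-week replicate 2 (38 counts each). Its Gzma of 0.469 CPM lay within the range of the other 12-week libraries. The 68-week replicate 3, with 102.1 CPM of Scgb1a1, had 0.741 CPM of Trac and 0.193 CPM of Gzma, both within the range of the other 68-week libraries. The same 12-week replicate 4 held the lowest Trbc2, Cd3e, Lck, Cd4 and Cd8a of its age. With Scgb1a1 as a term in the model, Trac had a log2 fold change of -0.96 and an edgeR adjusted p of 0.278, and with the summed airway lists as a term it had -0.99 and 0.162. Among the 4 libraries with the fewest Scgb1a1 counts (3 of 68 weeks and 1 of 12 weeks) the Trac value was -1.17, and among the 4 with the most (1 of 68 weeks and 3 of 12 weeks) it was -0.81, with edgeR adjusted p of 0.474 and 0.778. These fits were chosen after seeing the data and take the lone library to vary like the others. For Cd4 the value was 0.40 with Scgb1a1 in the model and 1.22 among the 4 libraries with the fewest Scgb1a1 counts, so its sign turned, and neither passed the test. Lck also turned, to 0.40 among those 4 libraries. Both signs there rest on 12-week replicate 4, the lone library of its age in that fit and the lowest of its age in Cd4 and Lck.

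Some genes of other leukocytes were also lower at 68 weeks. Ptprc, which encodes CD45 of all leukocytes, had 9.27, 8.90, 9.25 and 9.04 CPM in 68-week replicates 1 to 4, against 13.87, 16.01, 19.33 and 11.81 CPM in 12-week replicates 1 to 4. All 68-week libraries were below all 12-week libraries, at a log2 fold change of -0.74 ± 0.13 (SE) and an edgeR adjusted p of 0.0236, which became 0.290 with Scgb1a1 in the model. The Ptprc call was also lost without 68-week replicate 1, 2 or 4 or 12-week replicate 2, at edgeR adjusted p of 0.0535 to 0.0714, with the direction kept. Of 5 pan-leukocyte genes, 2 were called lower and 0 higher, and the list summed to 44.9 to 49.2 CPM at 68 weeks, against 54.2 to 85.4 CPM at 12 weeks. Of 8 B cell genes, 3 were called lower and 1 higher (1.22% and 1.61% of all tested genes were), with sums of 6.99 to 7.85 CPM at 68 weeks, against 6.57 to 17.6 CPM at 12 weeks. Most of the 68-week sum was Blk, the gene called higher. Blk had 3.91, 5.55, 4.67 and 6.40 CPM in 68-week replicates 1 to 4, against 3.03, 2.765, 3.53 and 3.07 CPM in 12-week replicates 1 to 4. The other 7 B cell genes had log2 fold changes below 0. Cd79a, called lower, and Fcmr passed the filter on low counts only through the 12-week libraries, where they were high, so these B cell counts are a description. Of 8 macrophage genes, 1 was called lower and 0 higher, with sums of 300.1 to 378.3 CPM at 68 weeks, against 325.3 to 399.2 CPM at 12 weeks. Of 5 neutrophil genes, 0 were called, all 5 were lower at an unadjusted p under 0.05 (9.77% of all tested genes were), and they summed to 3.14 to 6.03 CPM at 68 weeks, against 4.77 to 35.9 CPM at 12 weeks. Because Retnlg among them passed the filter only through the 12-week libraries, where it was high, this neutrophil count is a description. Among 6 dendritic cell, 5 mast cell and 5 plasma cell genes, 0 were called. Log2 fold changes lay above 0 for 3 of 4 tested dendritic, 3 of 4 tested mast and 1 of 4 tested plasma cell genes. Of 5 erythroid genes, 0 were called, with sums of 374.3 to 8539 CPM at 68 weeks, against 940.4 to 7971 CPM at 12 weeks. Of 6 adipocyte genes, 2 were called lower and 0 higher, with sums of 14.0 to 108.4 CPM at 68 weeks, against 144.1 to 545.5 CPM at 12 weeks. Of 5 thymic epithelium markers, Foxn1 and Psmb11 had 0 counts in all 8 libraries, and the list, mostly Ccl25, summed to 2.15 to 2.71 CPM at 68 weeks, against 2.20 to 2.97 CPM at 12 weeks. Of 6 lymphoid stroma markers, Fdcsp was not found by symbol in the count table, and Glycam1 and Ccl21a had 0 counts in all 8 libraries. That list, mostly Cxcl13, summed to 1.55 to 3.01 CPM at 68 weeks, against 0.898 to 1.41 CPM at 12 weeks, without overlap. Of its genes 2 were tested and none was called, and Cxcl13 had a log2 fold change of 1.01 (edgeR adjusted p 0.136). The part of these other cell types in the values of Trac, Gzma and Trdc was not tested.

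Relative to Ptprc, the receptor and CD3 genes differed from each other, again as a description chosen after the values were seen. Trac had 6.07, 9.31, 8.01 and 4.93 counts for every 100 Ptprc counts in 68-week replicates 1 to 4, against 9.34, 8.52, 6.46 and 11.6 in 12-week replicates 1 to 4. On this scale the ages overlapped for Trac. The 3 CD3 genes together had 13.6, 9.31, 6.97 and 9.87 counts for every 100 Ptprc counts at 68 weeks, against 3.19, 5.16, 6.24 and 5.20 at 12 weeks. Here every 68-week library was above every 12-week library, while Ptprc itself was lower in every 68-week library. In CPM, the ages overlapped for the summed CD3 genes. Their sums were 1.26, 0.829, 0.645 and 0.893 CPM in 68-week replicates 1 to 4, against 0.442, 0.826, 1.205 and 0.614 CPM in 12-week replicates 1 to 4. The 10 genes together had 41.8, 37.65, 31.7 and 29.6 counts for every 100 Ptprc counts at 68 weeks, against 30.15, 30.5, 33.0 and 28.4 at 12 weeks, and the ages overlapped.

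**Figure D4:**
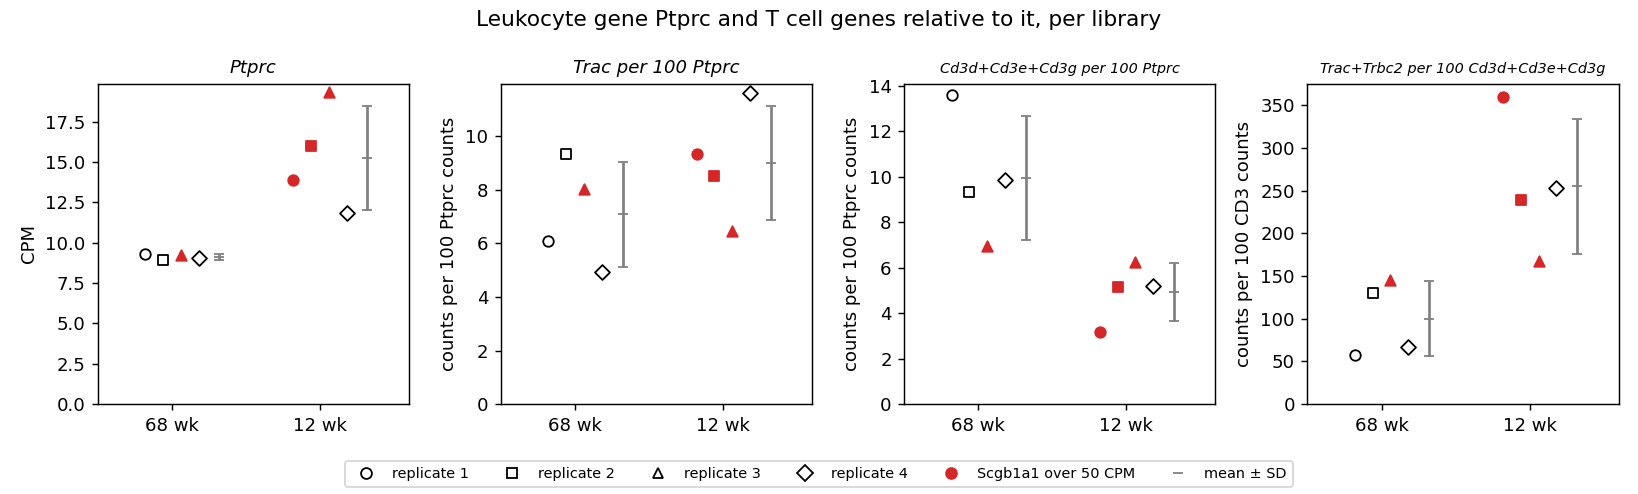
From left to right, Ptprc in CPM, Trac counts per 100 Ptprc counts, summed Cd3d, Cd3e and Cd3g counts per 100 Ptprc counts, and Trac plus Trbc2 counts per 100 counts of the 3 CD3 genes (vertical axes, linear, each from 0). Each panel has the 4 libraries of 68-week hearts on the left and the 4 of 12-week hearts on the right, with mean and SD in grey and red for libraries with over 50 CPM of Scgb1a1; the ages overlap in the Trac panel alone.

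In a wider list of T and NK genes, which leaves out the 10, 4 of 34 tested genes were called, against 2.83% of all tested genes. Of 75 listed genes in the table, 34 passed the filter, 2 were called higher at 68 weeks (Trdc and Prkcq) and 2 lower, among them Fyb. Because Trdc passed the filter only through the 68-week libraries, where it was high, these counts are a description. At an unadjusted p under 0.05, 5 were higher and 7 were lower, against 9.26% higher and 9.77% lower over all tested genes. The median log2 fold change of the 34 was -0.25, against -0.01 for all tested genes, with 14 above 0 and 20 below. By role, the receptor complex and its signalling genes had 2 higher and 1 lower of 10 tested. No call was made among 5 co-stimulation and checkpoint receptors, 7 transcription factors, 2 cytotoxic effectors, 2 NK cell receptors and 1 thymocyte gene.

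Prkcq, which encodes protein kinase C theta of T cell signalling and is also expressed in skeletal muscle, had 15.8, 12.5, 9.80 and 11.7 CPM in 68-week replicates 1 to 4, against 3.18, 5.46, 5.55 and 3.54 CPM in 12-week replicates 1 to 4. All 68-week libraries were above all 12-week libraries, at a log2 fold change of 1.5003 ± 0.21 (SE; edgeR adjusted p 0.00840). Bulk RNA does not say which cells carried it. Fyb, an adaptor of T cells and myeloid cells, had 3.87, 3.89, 3.90 and 3.54 CPM at 68 weeks, against 5.10, 6.32, 7.75 and 4.95 CPM at 12 weeks. It did not overlap between the ages, with a log2 fold change of -0.66 ± 0.15 (SE; edgeR adjusted p 0.0472), and kept the call in 1 of the 8 fits that leave out a library, without 12-week replicate 4.

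With Scgb1a1 in the model, edgeR adjusted p values were 0.101 for Trdc, 0.113 for Prkcq and 0.404 for Fyb, so none of these 3 kept its call, and each kept its direction. The airway lists in the model gave 0.0560, 0.0555 and 0.231, again with no call. With the replicate number as a block, Trdc (edgeR adjusted p 0.0618) and Fyb (0.0868) lost the call, and Prkcq kept it (0.0473).

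The other genes named by role did not pass the test. The co-stimulatory receptors Cd27 and Cd226 had log2 fold changes of -0.62 ± 0.28 and -1.58 ± 0.73 (SE). The transcription factor Satb1, which many tissues express, had 0.17 ± 0.052. Ctsw, a protease of cytotoxic cells, had -0.37 ± 0.27, and Ccl5, a chemokine of effector lymphocytes, had 0.22 ± 0.36. The integrin Itga2 and the interleukin receptor chain Il2rb, both used as NK cell markers, had -0.50 ± 0.38 and 0.25 ± 0.28, and the thymocyte gene Arpp21 had 0.18 ± 0.22. Their edgeR adjusted p lay between 0.117 for Satb1 and 0.779 for Ccl5.

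**Figure D5:**
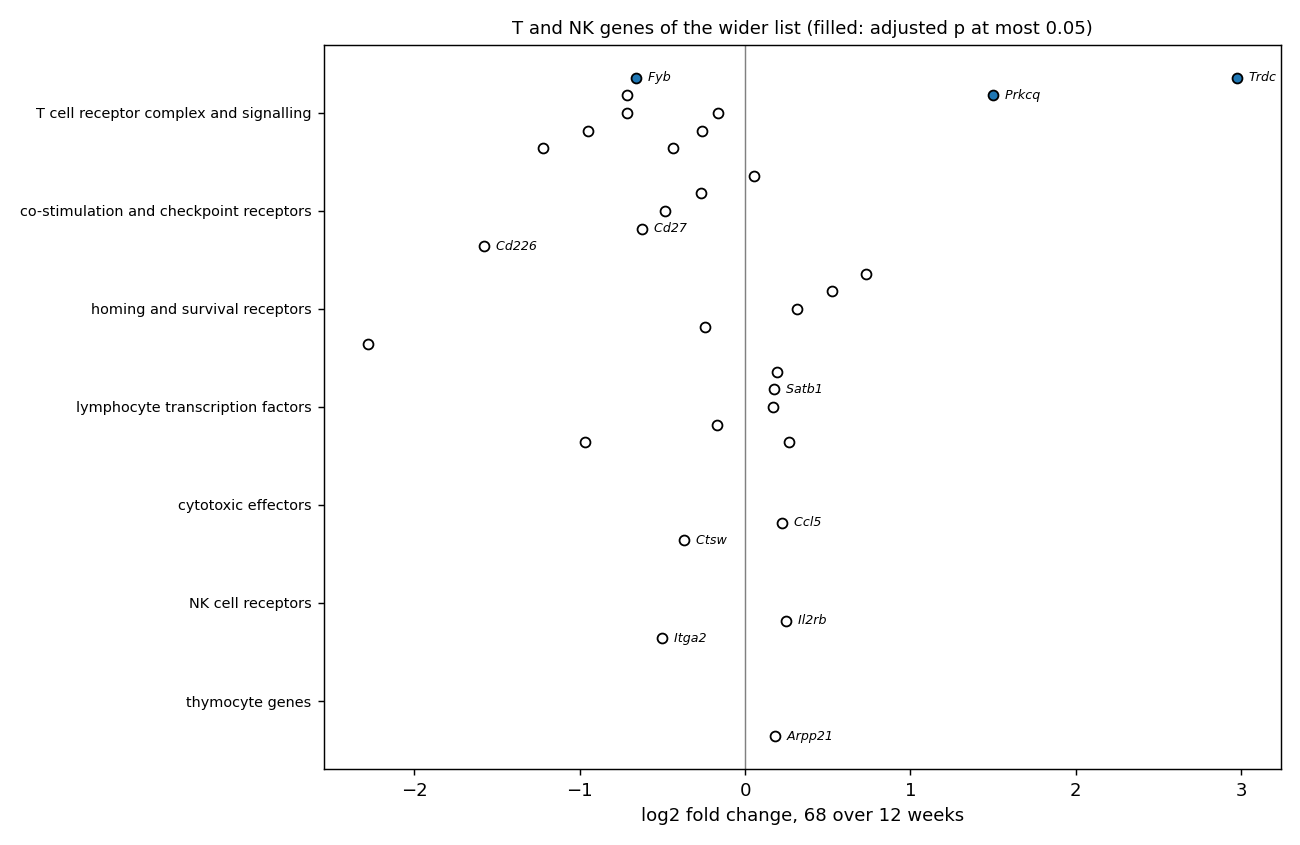
Log2 fold change of 68 over 12 weeks (horizontal axis) for 31 of the 34 genes of the wider T and NK list that passed the filter on low counts, in rows by role, with small vertical offsets and with labels on the genes named in the text. Filled points had an edgeR adjusted p of at most 0.05: Trdc and Prkcq to the right of 0 and Fyb to the left.

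Within an age, the tested genes varied together to differing degrees. Each gene's deviation from its age mean, as log2(CPM + 0.5), was correlated with the mean deviation of the other 4 tested genes over the 8 libraries. Pearson r was 0.866 for Cd3e, 0.801 for Lck, 0.719 for Gzma, 0.36 for Cd4 and 0.0776 for Trac, given as a description since the libraries share depth and cell content. Trac, the gene called among the 5, thus had the lowest of these 5 correlations. The tested genes were then ranked by likeness to the mean deviation of the 5. Left out were the 10 T and NK genes themselves, predicted and clone-named genes, and T cell receptor and immunoglobulin segments. The 10 most alike of the rest were Cit, Lcp2, Llph, Rccd1, Lyz1, Gpt2, Ptpn22, Pik3ap1, Sart1 and Fancd2, at r of 0.935 to 0.956 over 8 libraries. Ptprc had r of 0.751, the B cell gene Cd79a 0.78 and Scgb1a1 0.228.

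The deposited H3K27me3 lists, from CUT&RUN of hearts of the same 2 ages, linked regions to 4 of the 10 genes. H3K27me3 is a histone mark associated with silenced genes, and CUT&RUN releases the DNA where an antibody against it is bound. Each list belongs to 1 age, per the labels, and carries no value per library, so no error can be given. The 68-week list of 3433 regions named Cd3d, Cd3e and Cd4, and the 12-week list of 1164 regions named Cd3g. Of all genes in the count table, 2.4% were linked in the 68-week list and 1.06% in the 12-week list. The authors' score, called enrichment and without a stated scale, was 6.18 for the Cd3d region (chr9:44895405-44895609), 4.51 and 4.42 for the Cd3e regions (chr9:44910732-44910947 and chr9:44920605-44920984) and 6.55 for the Cd4 region (chr6:124844048-124844458). The median of the 68-week list was 4.77, so Cd3d and Cd4 were above it and Cd3e below. The Cd3g region of the 12-week list (chr9:44889211-44889443) scored 3.42, against a median of 4.5 in that list.

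The build of these positions was not established, and they are given as the lists have them. They lay 77.8 to 87.8 kb below the spans of the 3 CD3 genes in the count table and 20.2 kb below that of Cd4. Of 33 other links within 5 Mb of Cd3d, 28 also lay below their gene, 5 lay on it and 0 above it, with a median gap of 81.2 kb. The gaps of the CD3 genes are thus like those of their neighbours, and the distance between region and gene cannot be read from these numbers. Trac, Trbc2, Lck, Cd8a, Nkg7, Gzma and Trdc were linked to no region in either list. Of the wider T and NK genes found by symbol in the count table, the 68-week list named Grap2, Ikzf3, Lef1, Rag1, Skap1, Tbx21, Trat1 and Txk. The 12-week list named Gata3, Ikzf3, Satb1 and Skap1. Gata3, a transcription factor of helper T cells and other tissues, had 6 regions in the 12-week list, and Tbx21, which directs type 1 helper and NK cells, had a region at rank 57 of the 68-week list.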

How the data were processed

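For RNA, the authors deposited raw read counts, 1 whole number for each gene and library. The submitters' processing notes named mm10, Trimmomatic 0.36, STAR 2.5.2b, featureCounts, Subread 1.5.2 and DESeq2 without roles. Whether strand was used, or reads with several matches, is not given in the sources used here. Each of the 8 deposited per-library tables equalled the series table, and every value column was assigned to a sample by its label.

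Age, the only model term, was tested gene by gene with edgeR 4.0.16 under R 4.3.3 (TMM normalization, filterByExpr with a minimum count of 10, quasi-likelihood test, Benjamini-Hochberg adjustment over 15947 genes, adjusted p of at most 0.05). Log2 fold changes are 68 over 12 weeks. The SE was taken from the log2 fold change and its F value, as their quotient with F under a square root, and is approximate. CPM are counts per 1000000 of the TMM-adjusted library size. Libraries held 23599296 to 34599121 counts, the common biological coefficient of variation was 0.139, and any pair of libraries within an age differed beyond counting noise (their chi-square was at least 17.3 times its degrees of freedom). Alternatives were library size alone, no filter, a replicate block, Scgb1a1 or airway lists as terms, DESeq2 1.42.0, leaving out each library and, added after seeing the data, the 4 libraries with the fewest and the 4 with the most Scgb1a1 counts.

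For each H3K27me3 region, the deposited lists give a position, linked genes and a score that the authors call enrichment. The submitters' processing notes also named MACS3 3.0.0b1, Picard 2.26.2, SAMtools 1.14, Bowtie2 2.4.2 and Trim Galore 0.6.5. The authors' own gene links were used. Promoter windows came from RefSeq on GRCm38.p6, with 8 windows for 7 of the 10 genes.

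The 10 genes and the lists were chosen with earlier results of these data known. Named genes were the 10, Scgb1a1, the genes of the wider list that were called or had the 2 smallest p in their role group, and the 10 most alike in within-age deviations. A listed gene outside the table was not analysed here, and some genes that the rule names are not reported here.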

Additional observations from a re-analysis of the deposited data

Results flagged for a closer look

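In each age, the highest and the lowest of the 4 libraries were compared with the nearest other library, for the 10 genes, Scgb1a1 and Ptprc. A library stood apart where that gap, as a share of the range of its age, exceeded Dixon's 95% critical value. Of 24 groups of libraries, 4 held such a library, and chance gives about 1 in 20. Cd3e stood apart in 12-week replicate 3, at 0.646 CPM, and so did Nkg7 in the same library, at 0.344 CPM. Gzma stood apart in 68-week replicate 4, at 0.0298 CPM, which is a single count. Scgb1a1 stood apart in 68-week replicate 3, at 102 CPM.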

How the results depend on the processing

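The 10 genes were rare, so depth limits these results: 5 of 10 could not be tested with the filter on low counts. Of 88 values of the 10 genes under alternatives, 66 kept direction and side of the threshold, 14 lost the call (all of them Trac, whose log2 fold change ranged from -1.17 to -0.81), 1 gained it (Gzma with DESeq2) and 7 changed sign. Leaving out 1 library, Cd4 ranged from -0.33 to 0.16. The changes of sign were those of Cd4, to 0.0074 with the replicate block, 0.40 with Scgb1a1 and 0.29 with airway lists in the model, 0.16 and 0.027 without 12-week replicates 1 and 3, and 1.22 in the 4 libraries with the fewest Scgb1a1 counts, and of Lck, to 0.40 in those 4. None of these 7 passed the test. The cause was not tested.

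Counts are given here as higher and lower at 68 weeks, against 256 and 195 of all genes, 0 and 1 of the 10 genes and 2 and 2 of the wider list. Library size alone turned the split of all genes round, to 176 and 248, with 1 of the 10 lower and 2 and 3 of the wider list. No filter gave 0 of the 10 lower and 4 of the wider list lower. DESeq2 gave 568 and 439 of all genes, 2 of the 10 lower (Trac and Gzma) and 4 of the wider list lower. Scgb1a1 in the model gave 41 and 6 of all genes, and airway lists gave 74 and 22, with 0 of the 10 and 0 and 0 of the wider list in both. The 4 libraries with the fewest Scgb1a1 counts gave 10 and 23, and the 4 with the most gave 4 and 1, with 0 of the 10 and 0 and 0 of the wider list. Those fits have fewer samples. Leaving out 1 library gave 117 to 209 and 52 to 154 of all genes, 0 to 0 of the 10 lower, and 1 to 2 and 0 to 3 of the wider list.

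With the replicate number as a block, 112 and 48 of all genes, 0 of the 10 and 1 and 1 of the wider list were called, and Ptprc had an adjusted p of 0.0556. The numbers did not pair the libraries: same-number correlations of deviations were -0.197, 0.0368, -0.0524 and 0.238, and 1 of 8 libraries correlated best with its own number.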

Other observations

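Further genes of the wider list, named after their values were seen, did not pass the filter on low counts and are given with no test beyond the fit without it. Ncr1, which encodes the NK cell receptor NKp46, had 1, 0, 0 and 1 counts in 68-week replicates 1 to 4, against 6, 4, 2 and 4 counts in 12-week replicates 1 to 4. Prf1, which encodes the pore-forming protein perforin, had 3, 3, 2 and 5 counts at 68 weeks, against 9, 12, 6 and 7 counts at 12 weeks. For both genes every 68-week library had fewer counts than every 12-week library, an order that 5.86% of all tested genes show in CPM. They were the only such genes among the 10 NK cell receptors and the 8 cytotoxic effectors listed, 1 in each list. Others there ran the opposite way, such as Gzmk with 3, 0, 0 and 1 counts at 68 weeks, against 0 in every 12-week library. Their log2 fold changes without the filter were -2.81 ± 0.76 and -1.47 ± 0.44 (SE), with edgeR adjusted p of 0.0825 and 0.131. Pdcd1, which encodes the checkpoint receptor PD-1, had 7, 3, 2 and 11 counts at 68 weeks, against 4, 0, 0 and 1 counts at 12 weeks, and the ages overlapped. Its log2 fold change was 2.00 ± 0.80 (SE; edgeR adjusted p 0.292).

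The chemokine receptor Ccr7 of naive T cells and mature dendritic cells had a log2 fold change of -2.28 ± 0.56 (SE), with an edgeR adjusted p of 0.0673. Ccr7 passed the filter on low counts only through the 12-week libraries, where it was high. Cd247, which encodes the zeta chain of the receptor complex, had -0.71 ± 0.26 (SE) and 0.177. Pik3ap1, an adaptor of B cells and myeloid cells, was among the 10 genes ranked above as most alike in within-age deviations. It was called lower at 68 weeks, at -0.56 on the log2 scale with an edgeR adjusted p of 0.0335.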
